A study of Mus musculus with 27 samples.

Results

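Expression of synaptic plasticity genes in the brains of colonized and germ-free (GF) mice was compared at postnatal day 10 (P10). The comparison used 9 of the 27 RNA pools of the study, taken by their labelled treatment, brain region and age. In each of 3 regions (hippocampus, cortex and cerebellum), 2 pools from colonized mice were set against the GF pool of the same region, which gave 6 comparisons over 84 pathway genes. The mice of these pools were outbred male Swiss Webster mice, 10 days old, born to dams bred germ-free. The other 18 pools, from the same regions and treatments at P4 and P20, served to describe the change with age. Their listed fold values also entered the check of gene assignment, and colonized minus GF differences at those ages are given under Other observations. GF mice stayed germ-free, and their pups received a sham gavage of sterile saline. Conventionalized (CONV) litters acquired a mouse microbiota through dams gavaged with feces of specific pathogen free donors and through soiled bedding, and the pups received a sham gavage. BIF litters and their dams were dosed orally with a mixture of human *Bifidobacterium* species from the first day after birth. Each pool held RNA from 5 mice, with 2 µg from each, and 500 ng of the pool were converted to cDNA and run once. There was 1 pool per group and region, so no difference below has a replicate error or a p-value. Each treatment group was kept in its own isolator, and treatment and isolator cannot be told apart. The 3 pools of a region shared a plate, and each region had a plate of its own, so region and plate cannot be told apart either.

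The array covers genes that act at excitatory synapses during activity-dependent change. Glutamate opens AMPA and NMDA receptors, calcium entering through NMDA receptors drives kinases such as CaMKII, and immediate early genes such as *Arc*, *Egr1* and *Fos* are then transcribed within minutes of neuronal activity. During the first postnatal weeks synapses form in large numbers, NMDA receptor subunits that are abundant around birth give way to *Grin2a* and, in cerebellar granule cells, to *Grin2c*, and neurotrophins such as BDNF support survival and synapse maturation.

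The measured value is the CT, the PCR cycle at which a well crosses a set fluorescence, with 35 as the limit of detection. The ΔCT is the CT of a gene minus the CT of *Gapdh* in the same pool, so a higher ΔCT means less transcript. The log2 difference is the ΔCT of the GF pool minus that of the colonized pool, positive where the colonized pool held more. A gene was called higher or lower at 1.5-fold or more. The 3 wells of each of 2 controls (reverse transcription and PCR) gave an SD of 0.0754 cycles for a CT over the 9 pools, which carries to an SD of 0.151 for a log2 difference. The threshold of 1.5-fold is 3.88 times this SD. The control wells had CTs between 19.5 and 21.3, so this scatter does not cover wells with late CTs. Of the 756 CTs of pathway genes at P10, 43 from 8 genes were above 30, and 2, both of *Tnf*, were at 35. The genomic DNA control was at 35 in all 9 pools. A lower level in whole tissue can come from fewer cells of a type or from less RNA per cell, and these cannot be told apart here.

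The region labels were checked against genes with known regional expression, of which some are given here. *Grm4*, a receptor of cerebellar granule cells, had ΔCTs of 2.22 to 3.03 in the cerebellum, against 5.90 to 6.19 in the cortex and 7.09 to 7.18 in the hippocampus. *Grin2c* was also most abundant in the cerebellum. The forebrain genes *Camk2a*, *Grin2b*, *Gabra5* and *Nptx2* were lowest in all 3 cerebellum pools, and *Gabra5* had ΔCTs of 8.24 to 9.20 there against 2.29 to 3.48 in the forebrain regions.

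The choice of reference gene moved every gene of a comparison together. Of the 5 reference genes, *Actb*, *Gusb* and *Hsp90ab1* are named by their place on the array only. Relative to the mean of the 5 reference genes, *Gapdh* itself was lower in the BIF than in the GF pool by a log2 difference of -0.34 in the hippocampus, -0.25 in the cortex and -0.30 in the cerebellum. In the CONV pools its log2 difference was 0.03, -0.11 and -0.22 in the same order. With *Gapdh* as the reference, the median log2 difference of the 84 genes was -0.14, -0.045 and 0.025 for CONV, and 0.255, 0.14 and 0.195 for BIF. With the mean of 5, all 6 medians were below 0, between -0.195 and -0.081. The median thus changed sign with the reference in the CONV cerebellum and in all 3 BIF comparisons. Of the 504 values of the 6 comparisons, 149 had opposite signs with the 2 references. None of these was past 1.5-fold with *Gapdh*, and none could be, since each shift was smaller than 1.5-fold. Levels and folds below are relative to *Gapdh* unless the mean of 5 is named, and the sign of a difference short of 1.5-fold can depend on that choice.

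**Figure D1:**
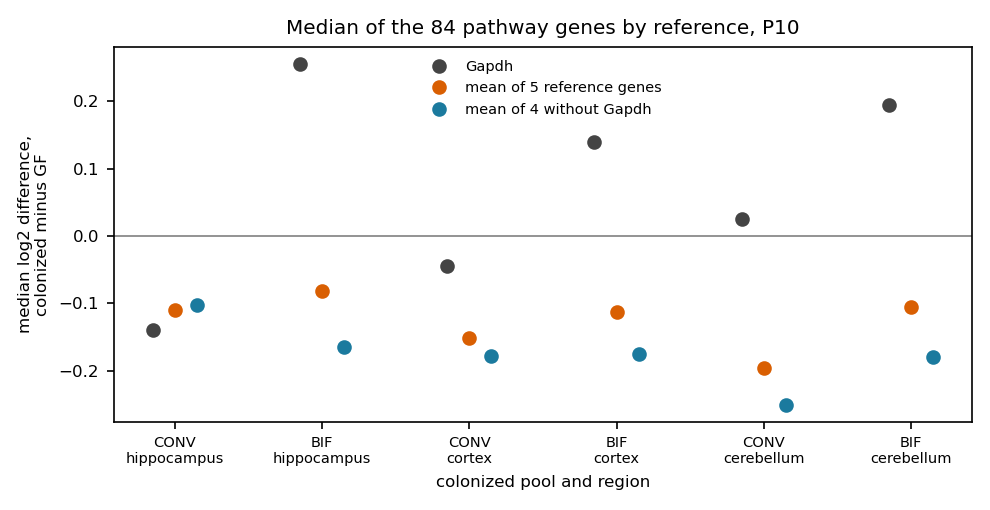
Median log2 difference between the colonized and GF pool over the 84 pathway genes (y axis) in each of the 6 comparisons (x axis), with ΔCT taken to *Gapdh*, to the mean of 5 reference genes and to the mean of the 4 others. The BIF medians lie between 0.14 and 0.255 with *Gapdh* and below 0 with the other references.

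Few genes passed 1.5-fold in any comparison. In the hippocampus, 2 of 84 genes (2.38%) were higher and 5 (5.95%) were lower in CONV than in GF mice, and 4 (4.76%) were higher and 0 (0%) lower in BIF mice. In the cortex, 4 genes (4.76%) were higher and 6 (7.14%) lower in CONV, and 1 (1.19%) was higher and 2 (2.38%) lower in BIF. In the cerebellum, 7 genes (8.33%) were higher and 2 (2.38%) lower in CONV, and 6 (7.14%) were higher and 3 (3.57%) lower in BIF. The 42 calls (8.33% of 504 values), 24 higher (4.76%) and 18 lower (3.57%), came from 23 genes, and 57.1% of them were higher.

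With the mean of 5 reference genes there were 46 calls (9.13% of 504 values), 15 higher (2.98%) and 31 lower (6.15%), so that 32.6% of the calls were higher, and 32 of the 42 calls made with *Gapdh* were kept. The counts in the hippocampus were then 3 higher (3.57%) and 5 lower (5.95%) in CONV, and 1 higher (1.19%) and 1 lower (1.19%) in BIF. In the cortex they were 3 higher (3.57%) and 8 lower (9.52%) in CONV, and 1 higher (1.19%) and 3 lower (3.57%) in BIF. In the cerebellum they were 6 higher (7.14%) and 7 lower (8.33%) in CONV, and 1 higher (1.19%) and 7 lower (8.33%) in BIF. The 10 calls that were lost were all of higher genes. They were *Fos*, *Adcy8* and *Ntf3* in the BIF hippocampus, *Grin2d* in the CONV cortex, *Ngfr* in both cerebellum comparisons, and *Grip1*, *Klf10*, *Cdh2* and *Rela* in the BIF cerebellum. Of the 14 calls gained, 13 were of lower genes, the exception being *Nos1* in the CONV hippocampus. The median of the 84 genes as the reference kept 34 of the 42 calls. The 8 lost were *Egr3*, *Junb*, *Grin2c* and *Ppp1r14a* as lower in the CONV hippocampus, *Adcy8*, *Fos* and *Ntf3* as higher in the BIF hippocampus, and *Kif17* as lower in the BIF cerebellum.

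**Figure D2:**
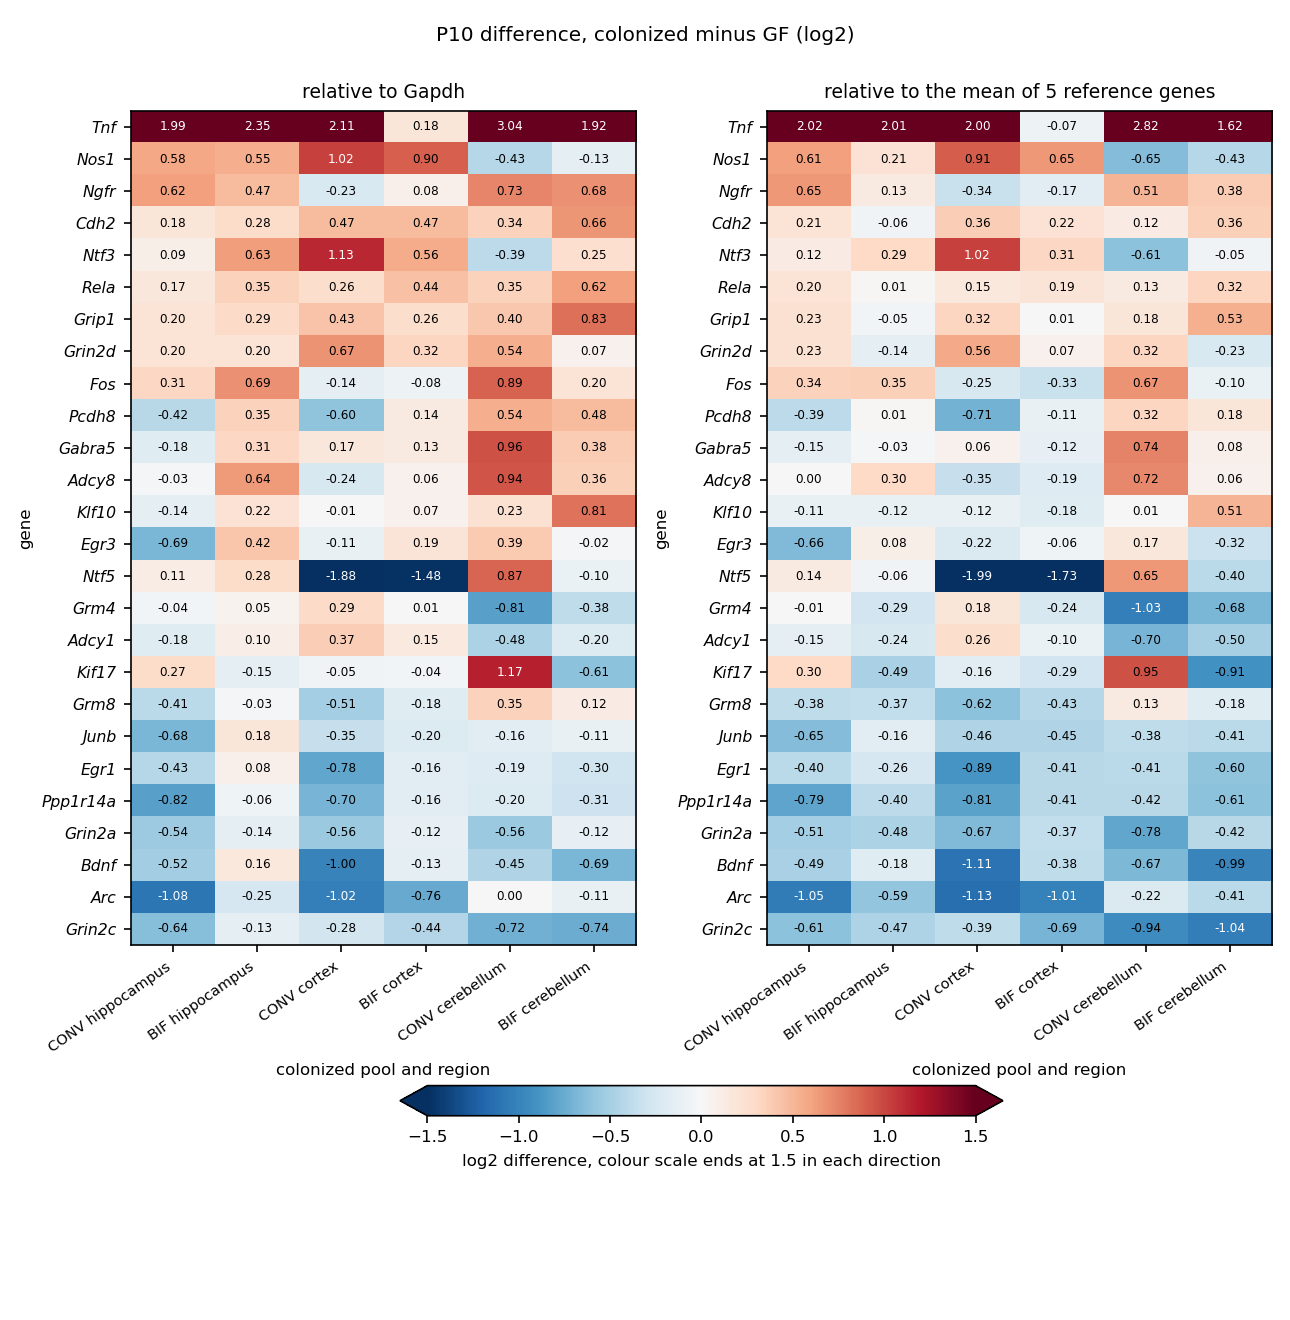
Log2 difference, colonized minus GF, for genes that passed 1.5-fold in at least 1 comparison with either reference (y axis) in the 6 comparisons (x axis), relative to *Gapdh* (left) and to the mean of 5 reference genes (right). Red is higher and blue lower in the colonized pool. *Tnf* is at the top, and *Arc* and *Grin2c* are at the bottom of both panels.

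Across the 6 comparisons, 14 of 84 genes (16.7%) were higher and 4 (4.76%) lower than GF in every comparison relative to *Gapdh*, whatever the size. With the mean of 5 reference genes, 1 (1.19%) was higher and 30 (35.7%) were lower in every comparison. Under both references, 1 gene (1.19%), *Rela*, was higher in all 6, and 4 genes (4.76%), *Grin2a*, *Grin2c*, *Camk2a* and *Ppp1r14a*, were lower in all 6. Relative to *Gapdh*, 0 genes were lower and 6 higher in all 6 where every difference had to exceed the SD from control wells. The comparisons of a region share their GF pool, and the regions were dissected from whole brains, so the pools of a group may come from the same mice and the 6 comparisons are not independent. The 4 lower genes also kept their direction in all 6 with the mean of the 4 reference genes other than *Gapdh* and with the median of the pathway genes. *Rela* did not, with -0.07 in the BIF hippocampus with the mean of the 4.

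*Grin2a* and *Grin2c* encode NMDA receptor subunits that become abundant as synapses mature. The ΔCT of *Grin2a* was 3.94 (GF), 4.48 (CONV) and 4.08 (BIF) in the hippocampus. It was 4.50, 5.06 and 4.62 in the cortex, with 5.91, 6.47 and 6.03 in the cerebellum, in the same order. The GF pool held most transcript in each region, the BIF pool was next and the CONV pool held least. The log2 differences of CONV were alike in the 3 regions, -0.54, -0.56 and -0.56, all short of 1.5-fold relative to *Gapdh*, and passed it in the cortex and cerebellum with the mean of 5, at -0.67 and -0.78. Those of BIF were -0.14, -0.12 and -0.12, smaller than the SD from the control wells, but -0.48, -0.37 and -0.42 with the mean of 5.

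The ΔCT of *Grin2c* was 8.13 (GF), 8.77 (CONV) and 8.26 (BIF) in the hippocampus, and 8.88, 9.16 and 9.32 in the cortex. In the cerebellum, where this subunit was most abundant, the ΔCT was 5.49 in GF, against 6.21 for CONV and 6.23 for BIF. Both colonized cerebellum pools thus held less, 1.65-fold in CONV and 1.67-fold in BIF, and the CONV hippocampus was 1.56-fold lower. The BIF cortex passed as lower with the mean of 5, at -0.69.

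*Camk2a* encodes the alpha subunit of CaMKII, an abundant kinase of excitatory forebrain neurons. Its ΔCT was -0.50 (GF), -0.02 (CONV) and -0.41 (BIF) in the hippocampus, 0.39, 0.85 and 0.41 in the cortex, with 5.43, 5.64 and 5.58 in the cerebellum. None of its differences reached 1.5-fold. Those of BIF, between -0.15 and -0.02, did not exceed the SD from the control wells with *Gapdh*, but were -0.43, -0.27 and -0.45 with the mean of 5. *Ppp1r14a*, which encodes an inhibitor of protein phosphatase 1, had ΔCTs of 8.04 (GF), 8.86 (CONV) and 8.10 (BIF) in the hippocampus, 8.37, 9.07 and 8.53 in the cortex, with 5.68, 5.88 and 5.99 in the cerebellum. It was 1.77-fold lower in the CONV hippocampus and 1.62-fold lower in the CONV cortex. *Rela*, which encodes the p65 subunit of NF-κB, had ΔCTs of 8.20, 8.03 and 7.85 in the hippocampus, 8.00, 7.74 and 7.56 in the cortex, with 7.27, 6.92 and 6.65 in the cerebellum, for GF, CONV and BIF. Relative to *Gapdh*, its level ran from GF through CONV to BIF in each region, and the BIF cerebellum was 1.54-fold higher. The hippocampus did not have this order with the mean of 5, with ΔCTs of 6.28, 6.08 and 6.27, and CONV held most there.

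**Figure D3:**
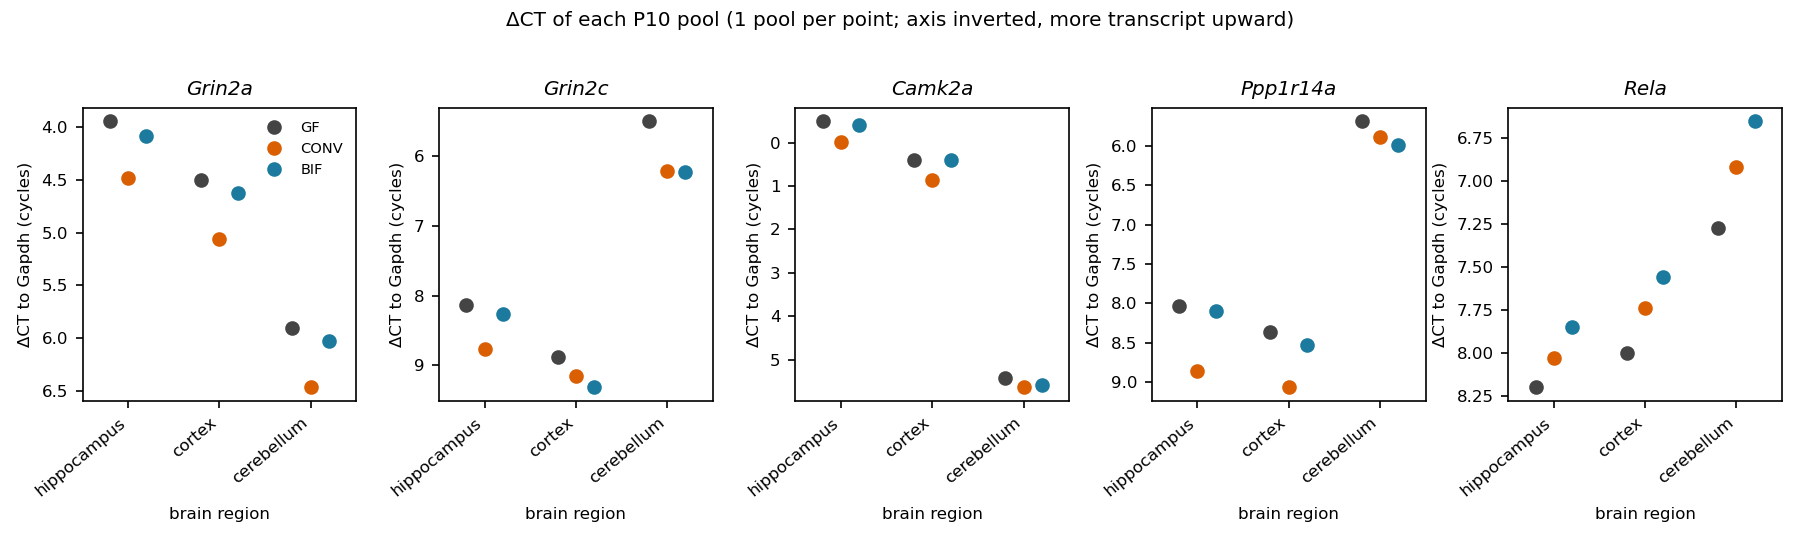
ΔCT to *Gapdh* (y axis, inverted so that more transcript is upward) of each P10 pool by region (x axis), 1 point per pool. The GF point is the highest of its region for *Grin2a*, *Grin2c*, *Camk2a* and *Ppp1r14a*, and the lowest for *Rela*.

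The promoters of the genes with a single direction under both references are shown from RefSeq where the table held them. Of the 84 pathway genes, 55 had a promoter in the table. *Grin2a* and *Camk2a* had none and are named only. Each sequence runs 5′ to 3′ on the gene's strand, from 250 bases before to 50 bases after the annotated start, in GRCm38.p6. Capitals mark GGGCGG on either strand, the GC box. *Grin2c* lies on the minus strand at chr11:115267194-115267493, *Ppp1r14a* on the plus strand at chr7:29289070-29289369 and *Rela* on the plus strand at chr19:5637291-5637590.
Grin2c: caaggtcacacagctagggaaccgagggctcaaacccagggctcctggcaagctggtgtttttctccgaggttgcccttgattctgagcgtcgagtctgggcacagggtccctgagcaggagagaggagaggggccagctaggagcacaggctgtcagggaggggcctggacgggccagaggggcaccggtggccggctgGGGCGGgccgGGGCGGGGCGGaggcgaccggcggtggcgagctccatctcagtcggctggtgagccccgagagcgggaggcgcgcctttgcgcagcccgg
Ppp1r14a: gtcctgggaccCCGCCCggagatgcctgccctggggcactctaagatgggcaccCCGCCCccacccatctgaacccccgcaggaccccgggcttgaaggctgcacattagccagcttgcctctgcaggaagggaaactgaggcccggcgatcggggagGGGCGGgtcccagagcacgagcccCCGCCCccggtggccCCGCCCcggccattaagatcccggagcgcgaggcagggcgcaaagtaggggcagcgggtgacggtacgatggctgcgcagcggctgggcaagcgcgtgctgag
Rela: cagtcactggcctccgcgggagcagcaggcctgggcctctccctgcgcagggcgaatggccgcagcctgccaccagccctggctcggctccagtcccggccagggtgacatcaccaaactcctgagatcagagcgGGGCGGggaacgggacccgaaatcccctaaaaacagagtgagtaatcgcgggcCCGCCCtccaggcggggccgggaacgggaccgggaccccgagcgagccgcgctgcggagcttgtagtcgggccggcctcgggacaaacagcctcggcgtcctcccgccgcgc
The GC box occurred 3 times in the *Grin2c* window, where the 2 nearest to the start share a base, 5 times in that of *Ppp1r14a* and 2 times in that of *Rela*. The motif was found in 35.7% of the 32851 promoters of the table, so it does not set these genes apart, and it was present for lower genes and for the higher gene alike.

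Of the 5 NMDA receptor subunits, the median log2 difference lay below that of all 84 genes in each of the 6 comparisons, by -0.065 to -0.355, whichever reference was used, since a reference moves both medians alike. Relative to *Gapdh*, 3 of their 30 values passed 1.5-fold as lower, all of *Grin2c*, and 1 as higher, against 8.33% of all 504 values. The same count with the mean of 5 gave 6 lower, including *Grin2a*, and 0 higher, against 6.15% lower and 2.98% higher of all values. The higher call with *Gapdh* was *Grin2d*, a subunit of the developing brain, with ΔCTs of 4.75 (GF), 4.08 (CONV) and 4.43 (BIF) in the cortex. The CONV cortex was 1.59-fold higher, a call that was lost with the mean of 5. Its log2 differences relative to *Gapdh* were above 0 in all 6 comparisons and turned to -0.14 and -0.23 in the BIF hippocampus and cerebellum with the mean of 5. *Grin2b*, whose listed values also occur in other wells, had log2 differences between -0.10 and 0.31.

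None of the 24 values of the 4 AMPA receptor subunits passed 1.5-fold with either reference, where 8.33% of all values did with *Gapdh* and 9.13% with the mean of 5. *Gria2*, which encodes the subunit that makes the channel impermeable to calcium, had ΔCTs of 2.61, 2.50 and 2.18 in the GF, CONV and BIF hippocampus, and *Gria4*, named by its place on the array only, had 5.24, 5.35 and 5.24. Of the 42 values of the 7 metabotropic glutamate receptors, 1 passed, again against 8.33% of all values, and 3 passed with the mean of 5, all lower, against 6.15% of all values called lower. *Grm4*, the granule cell receptor, had a ΔCT of 2.22 (GF), 3.03 (CONV) and 2.60 (BIF) in the cerebellum. The CONV cerebellum was 1.75-fold lower, and with the mean of 5 the BIF cerebellum also passed, with -0.68. In the hippocampus and cortex the log2 differences of *Grm4* ranged from -0.04 to 0.29. *Grm8* had -0.51 in the CONV cortex and passed with the mean of 5, at -0.62. *Grm3*, which is strong in astrocytes, had log2 differences from -0.22 to 0.53, with the 2 highest in the cerebellum.

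Calls of immediate early genes as lower came from the CONV hippocampus, the CONV cortex and the BIF cortex. Of the 54 values of the 9 genes, 6 passed 1.5-fold as lower and 2 as higher relative to *Gapdh*, and 8 as lower and 1 as higher with the mean of 5. Over all genes, 3.57% of values were lower and 4.76% higher with *Gapdh*, and 6.15% and 2.98% with the mean of 5. The median of the list lay below that of all 84 genes in all 6 comparisons, by -0.025 in the CONV cerebellum to -0.30 in the BIF cortex. *Arc*, whose product acts at dendrites in the removal of AMPA receptors, had a ΔCT of 5.32 (GF), 6.40 (CONV) and 5.57 (BIF) in the hippocampus. The ΔCT was 5.63, 6.65 and 6.39 in the cortex, with 8.31, 8.31 and 8.42 in the cerebellum. *Arc* was thus 2.11-fold lower in the CONV hippocampus, 2.03-fold lower in the CONV cortex and 1.69-fold lower in the BIF cortex, while the log2 differences in the cerebellum were 0.00 and -0.11, and -0.22 and -0.41 with the mean of 5. Its log2 difference in the BIF hippocampus passed as well with the mean of 5, at -0.59.

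*Egr1*, a transcription factor gene induced by activity, had ΔCTs of 3.58 (GF), 4.36 (CONV) and 3.74 (BIF) in the cortex. The CONV cortex was 1.72-fold lower, and the log2 difference in the BIF cortex was -0.16. The BIF cerebellum passed as lower with the mean of 5, at -0.60. In the CONV hippocampus, *Egr3* was 1.61-fold lower, with ΔCTs of 5.06 in the GF and 5.75 in the CONV pool, and *Junb* 1.60-fold lower, with 10.52 and 11.20. The BIF hippocampus went the other way for these 2 genes relative to *Gapdh*, with log2 differences of 0.42 and 0.18, of which that of *Junb* became -0.16 with the mean of 5. The CTs of *Junb* in the hippocampus were all above 30.

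*Fos*, which encodes a subunit of the AP-1 transcription factor, moved apart from *Arc*. Its ΔCT was 8.34, 8.03 and 7.65 in the GF, CONV and BIF hippocampus, 7.43, 7.57 and 7.51 in the cortex, with 7.72, 6.83 and 7.52 in the cerebellum. It was 1.61-fold higher in the BIF hippocampus, which was lost with the mean of 5, and 1.85-fold higher in the CONV cerebellum. The promoters of *Junb*, at chr8:84978699-84978998 on the minus strand, and of *Fos*, at chr12:85473640-85473939 on the plus strand, are shown because these related genes passed 1.5-fold in opposite directions, though never in the same comparison. Capitals mark TGACG on either strand, the core of the cAMP response element.
Junb: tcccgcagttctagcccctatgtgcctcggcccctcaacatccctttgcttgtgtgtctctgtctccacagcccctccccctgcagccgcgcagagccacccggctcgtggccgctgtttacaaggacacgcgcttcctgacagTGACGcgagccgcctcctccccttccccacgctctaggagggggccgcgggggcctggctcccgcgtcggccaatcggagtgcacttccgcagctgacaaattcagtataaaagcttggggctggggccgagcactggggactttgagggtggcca
Fos: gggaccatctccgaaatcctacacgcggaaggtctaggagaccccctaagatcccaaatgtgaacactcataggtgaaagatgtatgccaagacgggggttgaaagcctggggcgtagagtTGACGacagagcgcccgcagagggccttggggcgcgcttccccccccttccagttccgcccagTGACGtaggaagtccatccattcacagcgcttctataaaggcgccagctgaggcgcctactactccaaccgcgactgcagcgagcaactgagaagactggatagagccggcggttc
The motif occurred 1 time for *Junb*, 106 bases before the start, and 2 times for *Fos*, 129 and 66 bases before it, and was found in 20.8% of all promoters of the table.

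The 11 other activity-regulated genes had 1 higher and 1 lower call in 66 values, against 8.33% of all values called, and their median was not below that of all genes in any comparison. *Pcdh8*, an adhesion gene induced by activity, had ΔCTs of 4.34, 4.94 and 4.20 in the GF, CONV and BIF cortex and was 1.52-fold lower in CONV. *Klf10*, a zinc finger transcription factor gene, had ΔCTs of 7.78, 7.55 and 6.97 in the cerebellum and was 1.75-fold higher in BIF, with a log2 difference of 0.51 with the mean of 5. *Homer1*, a scaffold gene of the postsynaptic density, had log2 differences from -0.50 in the CONV hippocampus to 0.26 in the BIF cerebellum, which became -0.04 with the mean of 5.

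**Figure D4:**
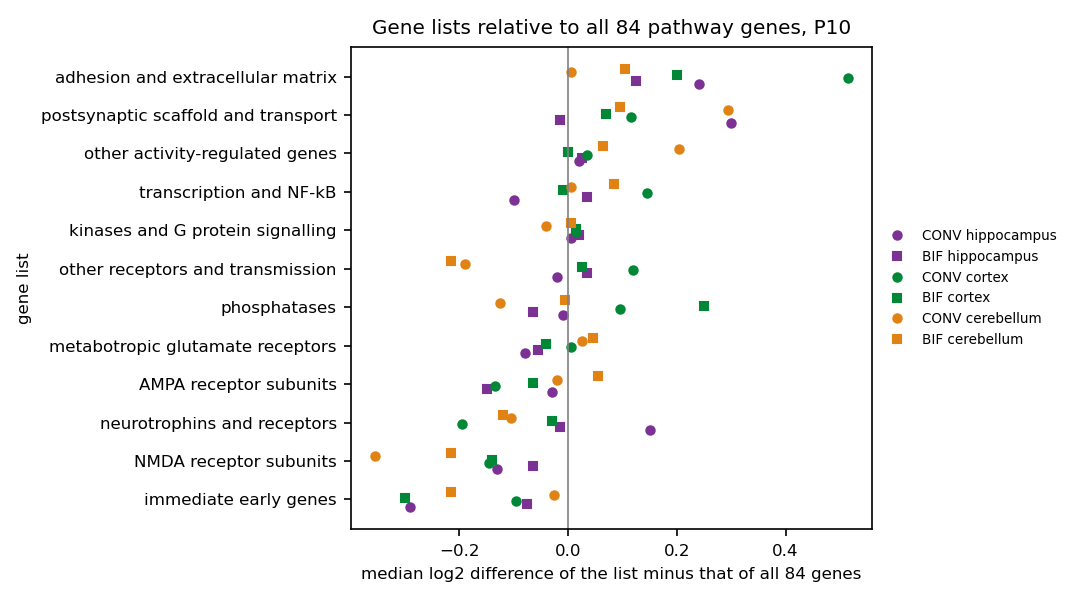
Median log2 difference of each gene list minus the median of all 84 pathway genes (x axis) for 12 lists (y axis), 1 point per comparison, where circles are CONV, squares BIF, and colours mark regions. The NMDA receptor subunits and the immediate early genes lie left of 0 in all 6 comparisons, and the adhesion and extracellular matrix genes lie right of it.

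Neurotrophins and their receptors gave 10 of the 42 calls, 6 higher and 4 lower in 36 values, against 24 higher and 18 lower in all 504. The mean of 5 gave 3 higher and 7 lower, against 15 higher and 31 lower in all 504, so the balance of the list shifted with that of all genes. *Bdnf*, a growth factor gene of active neurons, had ΔCTs of 5.04 (GF), 5.56 (CONV) and 4.88 (BIF) in the hippocampus, 6.32, 7.32 and 6.45 in the cortex, with 8.75, 9.20 and 9.44 in the cerebellum. It was 2.00-fold lower in the CONV cortex and 1.61-fold lower in the BIF cerebellum, and the CONV cerebellum passed as lower with the mean of 5, at -0.67. The BIF hippocampus was above the GF pool by 0.16 with *Gapdh* and below it by -0.18 with the mean of 5.

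*Ntf3*, which encodes neurotrophin 3, had ΔCTs of 7.91 (GF), 6.78 (CONV) and 7.35 (BIF) in the cortex. The CONV cortex was 2.19-fold higher, and the BIF hippocampus 1.55-fold higher. *Ntf3* was most abundant in the cerebellum, and there the log2 difference was -0.39 in CONV, which passed as lower with the mean of 5, at -0.61, and 0.25 in BIF, which turned to -0.05. *Ntf5*, which encodes neurotrophin 4/5, was scarce, with CTs from 31.69 to 33.97. Its ΔCT in the cortex was 12.74 (GF), 14.62 (CONV) and 14.22 (BIF), 3.68-fold and 2.79-fold lower. In the cerebellum the ΔCT was 14.17, 13.30 and 14.27, so the CONV pool was 1.83-fold higher and the BIF pool close to GF. The receptor gene *Ngfr* (p75NTR) had ΔCTs of 6.23 (GF), 5.50 (CONV) and 5.55 (BIF) in the cerebellum, 1.66-fold and 1.60-fold higher, and the CONV hippocampus was 1.54-fold higher. Both cerebellum calls were lost with the mean of 5, at 0.51 and 0.38.

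*Nos1*, which encodes neuronal nitric oxide synthase, was higher in both colonized cortex pools. Its ΔCT was 7.58 (GF), 7.00 (CONV) and 7.03 (BIF) in the hippocampus, and 8.04, 7.02 and 7.14 in the cortex. The cortex was 2.03-fold higher in CONV and 1.87-fold higher in BIF, and both calls held with the mean of 5. In the cerebellum the ΔCT was 5.05, 5.48 and 5.18, and the CONV pool passed as lower with the mean of 5, at -0.65. The list of other receptors and transmission genes, which holds *Nos1*, had 3 higher and 0 lower calls in 24 values, and 4 and 1 with the mean of 5, against 42 and 46 calls in all 504 values. The remaining call was *Gabra5*, a GABA-A receptor subunit gene, with ΔCTs of 9.20, 8.24 and 8.82 in the cerebellum and 1.95-fold more in CONV than in GF. *Rab3a*, a synaptic vesicle gene, ranged from -0.15 to 0.27, and from -0.44 to -0.07 with the mean of 5.

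Among scaffold and transport genes, 2 of 30 values passed as higher and 1 as lower, and 1 each way with the mean of 5, against 8.33% and 9.13% of all values called. *Kif17*, a motor that carries NMDA receptor cargo in dendrites, had ΔCTs of 11.30 (GF), 10.13 (CONV) and 11.91 (BIF) in the cerebellum. It was 2.25-fold higher in CONV and 1.53-fold lower in BIF, with CTs of 29.47 to 31.32. *Grip1*, a scaffold gene of AMPA receptors, had ΔCTs of 7.30, 6.90 and 6.47 in the cerebellum and was 1.78-fold higher in BIF, a call lost with the mean of 5.

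The 12 kinase and G protein signalling genes had 2 higher and 0 lower calls in 72 values, and 1 each way with the mean of 5, against 8.33% and 9.13% of all values called. Both calls with *Gapdh* were of *Adcy8*, a calcium-stimulated adenylyl cyclase gene. Its ΔCT in the cerebellum was 10.47 (GF), 9.53 (CONV) and 10.11 (BIF), 1.92-fold higher in CONV, and the BIF hippocampus was 1.56-fold higher. *Adcy1*, of the same enzyme family, had ΔCTs of 2.14, 2.62 and 2.34 in the cerebellum, a log2 difference of -0.48 in CONV, which passed as lower with the mean of 5, at -0.70. *Plcg1*, a phospholipase gene downstream of neurotrophin receptors, lay between 0.22 and 0.47 in the 6 comparisons, and between 0.00 and 0.37 with the mean of 5, without a call. Of the 30 values of the 5 phosphatase genes, the 2 calls, both lower, were those of *Ppp1r14a*, where 3.57% of all values were called lower. There were 3 with the mean of 5, against 6.15% of all values, the added call being *Ppp1r14a* in the BIF cerebellum, at -0.61. *Ppp1ca*, named by place only, ranged from -0.05 to 0.54, and from -0.27 to 0.37 with the mean of 5.

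Adhesion and extracellular matrix genes had 1 call in 42 values, against 42 in all 504. Of their values, 37 were above 0 relative to *Gapdh* and 24 with the mean of 5, where 303 (60.1%) and 150 (29.8%) of all 504 were. Their median lay above that of all 84 genes in all 6 comparisons, by 0.005 to 0.515. *Cdh2*, the gene of N-cadherin, had ΔCTs of 6.72 (GF), 6.38 (CONV) and 6.06 (BIF) in the cerebellum and was 1.58-fold higher in BIF. Its 6 log2 differences were above 0 relative to *Gapdh* and the BIF hippocampus turned to -0.06 with the mean of 5. *Timp1*, a metalloproteinase inhibitor gene, ranged from -0.22 to 0.46.

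Of the 42 values of the transcription and NF-κB list, 6 passed as higher and 0 as lower, 5 of them *Tnf* and 1 *Rela*, against 24 higher and 18 lower in all 504 values. *Tnf*, a cytokine gene of microglia and other immune cells, was at the limit of 35 in the GF hippocampus and cerebellum and had a CT of 34.59 in the GF cortex. In the hippocampus, the CT was 32.76 in CONV and 32.95 in BIF, at least 3.97-fold and at least 5.10-fold higher than GF. In the cerebellum it was 31.90 and 33.09, at least 8.22-fold and at least 3.78-fold higher. These lower bounds hold relative to *Gapdh* only. With the mean of 5, the ΔCTs of GF, CONV and BIF were 13.48, 11.46 and 11.47 in the hippocampus. In the cerebellum they were 13.85, 11.03 and 12.23. In the cortex the CT was 32.46 and 34.47, 4.32-fold higher in CONV and 1.13-fold higher in BIF, and the BIF value turned to -0.07 with the mean of 5. Every *Tnf* value is a single well with a late CT, and its scatter was not measured. Another microglial gene on the array, *Igf1*, named by place only, had ΔCTs of 6.23, 6.34 and 5.95 in the hippocampus, 6.39, 6.52 and 6.12 in the cortex, with 7.02, 6.53 and 6.80 in the cerebellum. No value of *Igf1* passed 1.5-fold, and whether the number of microglia differed between pools was not tested. *Creb1*, which encodes a transcription factor of activity-dependent genes, was between -0.54 in the CONV hippocampus and 0.28 in the BIF cerebellum, and below 0 in all 6 comparisons with the mean of 5. *Ywhaq*, listed with *Igf1* outside the other lists and named by place only, ranged from -0.28 to 0.40, and neither had a call.

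The CONV and BIF pools were also compared with each other, without the GF pool. In the hippocampus, 12 of 84 genes (14.3%) differed by 1.5-fold or more relative to *Gapdh*, all lower in CONV, among them *Arc*, *Bdnf*, *Egr3*, *Junb* and *Ppp1r14a*, while the median of the 84 genes was -0.395. The median was -0.029 with the mean of 5, and 2 genes (2.38%) differed, *Egr3* lower and *Kif17* higher in CONV, so the count in this region depended on the reference. In the cortex 4 genes (4.76%) differed, with *Bdnf*, *Egr1* and *Pcdh8* lower and *Tnf* higher in CONV, and 4 (4.76%) with the mean of 5, where *Ntf3* passed as higher and *Egr1* did not pass. In the cerebellum 5 genes (5.95%) differed, with *Fos*, *Kif17*, *Ntf5* and *Tnf* higher and *Ntf3* lower in CONV, and 7 (8.33%) with the mean of 5, all higher.

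The P10 differences were then set against the change of each gene with age, a description chosen after the values were seen. The change was the mean log2 difference between the P20 and the P4 pools over the 3 treatment groups, so no P10 pool entered it. In the hippocampus and cerebellum the P4 and P20 pools were on different plates, so age and plate cannot be told apart there. In the cortex, the P4 BIF pool alone was on the plate of the P20 pools. Relative to the median of all genes, those with more transcript at P20 than at P4 tended to have lower P10 differences, and those with less transcript at P20 higher ones. Across the 84 genes, Pearson's r was -0.63 in the hippocampus, -0.54 in the cortex and -0.56 in the cerebellum for CONV, and -0.51, -0.55 and -0.57 for BIF. Spearman's rho lay between -0.68 and -0.54. Genes are not independent replicates, the comparisons of a region share their GF pool and their age change, and the reference cannot alter r where it adds a constant to every gene of a comparison. In the hippocampus, the 14 genes that were at least 1 log2 unit higher at P20 had a median P10 difference of -0.455 in CONV and 0.105 in BIF, and the 19 genes at least 1 unit lower had 0.17 and 0.35, against -0.14 and 0.255 for all 84. In the BIF hippocampus, 5 of those 14 genes were below 0 relative to *Gapdh*. Both sets of genes, with more and with less transcript at P20, were drawn relative to *Gapdh*. Against it the other reference genes changed by -1.48 (*Actb*), 0.43 (*B2m*), -0.95 (*Gusb*) and -0.58 (*Hsp90ab1*) in the hippocampus. The sizes of both sets thus depend on the reference.

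The genes with a single direction in all 6 comparisons under both references had this relation in each region relative to *Gapdh*. They were picked by their P10 direction and serve as examples only. *Grin2c* had a change from P4 to P20 of 2.86 in the hippocampus, 3.45 in the cortex and 5.60 in the cerebellum, and *Grin2a* had 1.65, 1.64 and 2.71. *Camk2a* and *Ppp1r14a* also had more transcript at P20, with changes of 1.53 to 3.08. *Rela* had less relative to *Gapdh*, with -1.17, -1.63 and -0.60. In the cerebellum the other reference genes fell further against *Gapdh*, with -1.78 (*Actb*), -0.66 (*B2m*), -1.45 (*Gusb*) and -1.10 (*Hsp90ab1*). Relative to any of them *Rela* thus rose there. In the hippocampus and cortex *Actb* changed by -1.48 and -2.27, so *Rela* rose relative to *Actb* there too. It fell relative to *B2m*, *Gusb* and *Hsp90ab1* in those regions. The direction of *Rela* with age thus depends on the reference in each region. *Arc* had 3.17 in the hippocampus and 4.34 in the cortex, and 1.06 in the cerebellum.

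Each P10 pool was also placed on the line from the mean P4 profile (0) to the mean P20 profile (1) of its region by least squares over the 84 genes. In the hippocampus the GF pool lay at 0.634, the CONV pool at 0.449 and the BIF pool at 0.473. In the cortex they lay at 0.609, 0.443 and 0.493, and in the cerebellum at 0.559, 0.404 and 0.446. The GF pool was thus nearest to P20 and the CONV pool nearest to P4 in all 3 regions, and this order held with each of the 4 references. The distance between the GF and a colonized pool on this line is computed from their P10 differences and the change with age. It thus restates the relation described by the correlations and is not a separate result. With 1 pool per group, a difference between litters and a difference between treatments cannot be told apart.

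**Figure D5:**
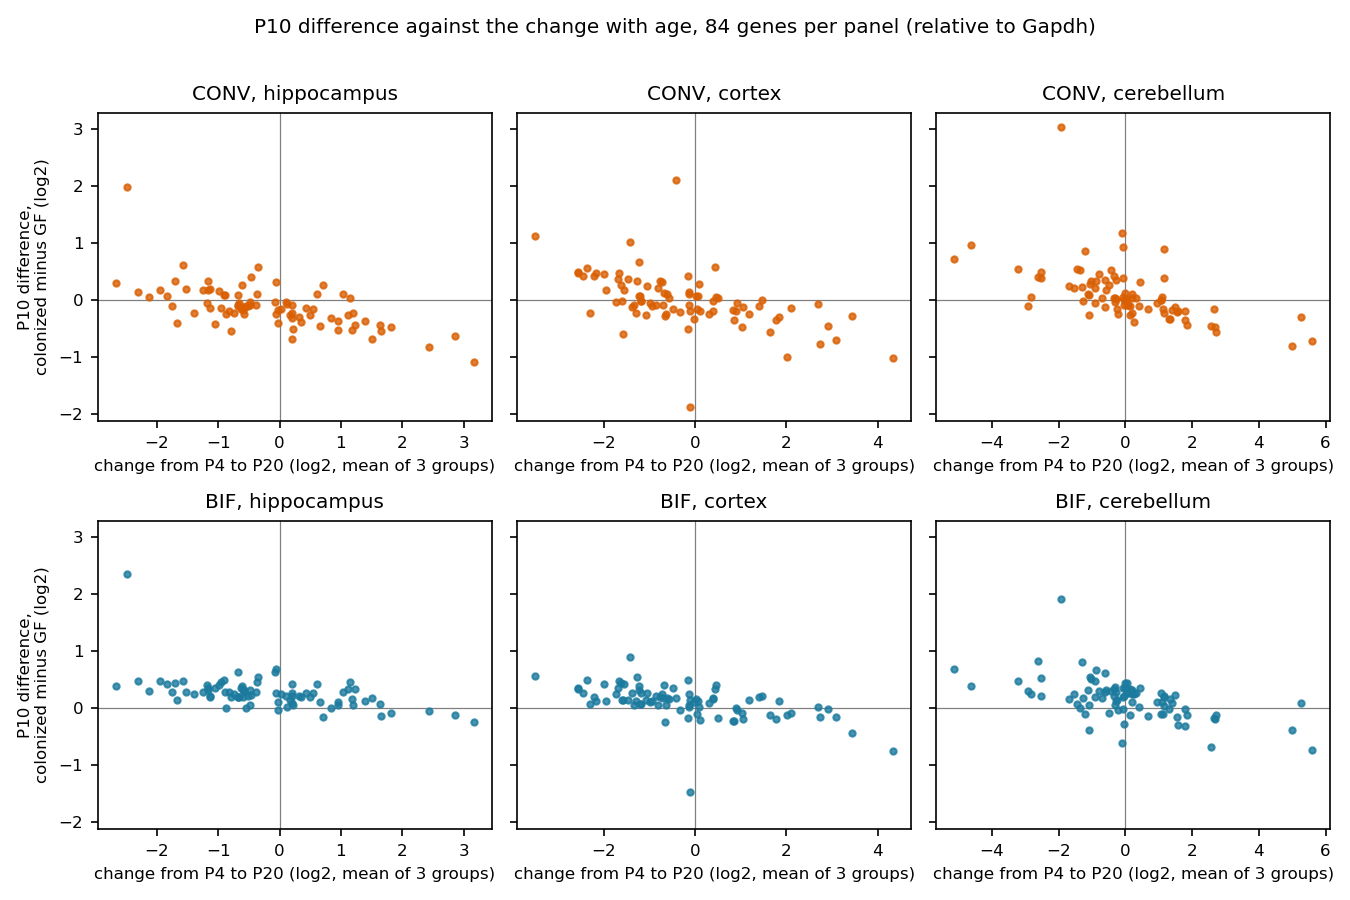
Log2 difference at P10, colonized minus GF (y axis), against the log2 change from P4 to P20, mean of the 3 treatment groups (x axis), both relative to *Gapdh*, with 1 point for each of 84 genes. The points slope downward in all 6 panels, with r between -0.63 and -0.51.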

How the data were processed

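Expression was measured by SYBR Green qPCR arrays of 96 wells per pool. The deposited values are CTs, not normalized, with a manual threshold and 35 as the detection limit. The authors also deposited fold changes of the colonized over GF pools, which were not used. The wells carry no gene names. Genes were assigned by their place in the array's order, checked against the fold values listed by the study, within 1.2% or 0.03. The order used differs from the study's gene list in the places of the *Grin2* genes, *Pick1*, *Ywhaq* and *Actb*. *Nr4a1* is not in that list and was placed by its listed values. Of 84 pathway genes, 54 had listed values that point to 1 well, 8 had values that also occur elsewhere, and 22 were placed by order only, as were 3 of the 5 reference genes (*Actb*, *Gusb* and *Hsp90ab1*). Of 189 listed values, 188 matched the assigned well; the other was of *Junb*. *Pick1* and *Pim1* were not told apart and are named here only. ΔCT, log2 differences and calls at 1.5-fold were computed in Python 3.11.15 with numpy 2.4.6, pandas 2.3.3 and matplotlib 3.10.9, and tested on simulated data. No test was run, with 1 pool per group. Genes were named if past 1.5-fold with *Gapdh* or the mean of 5, if of 1 sign in all 6 comparisons with both, or as the highest and lowest median of a gene list; *Grin2b* and some of the region markers are named besides, and not every gene that met these rules is named. The members and lists were chosen with earlier results of these data known. Alternatives were other references, 2-fold, filters on late CTs and leaving out a region.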

Additional observations from a re-analysis of the deposited data

Results flagged for a closer look

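*Ntf5* differed in opposite directions between regions in CONV mice. Its log2 difference from GF was -1.88 in the cortex and 0.87 in the cerebellum, 2.75 apart, with CTs of 32.11 and above in these pools. *Kif17* differed in opposite directions between the colonized groups in the cerebellum, with 1.17 in CONV and -0.61 in BIF, 1.78 apart, and CTs of 29.47 to 31.32. Each value rests on 1 well per pool, and neither difference was tested.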

How the results depend on the processing

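Of 117 alternative values of the counts and medians, 70 were close to the reported value and 47 moved. Of 726 alternative values of single genes and correlations, 336 were close and 390 moved. None of the 42 calls of single genes changed sign under another reference. None could, since no other reference moved a comparison by as much as 1.5-fold. With the mean of 5 reference genes, 1 gene was higher and 1 lower in the BIF hippocampus, 7 were lower in the CONV cerebellum, and 1 was higher and 7 lower in the BIF cerebellum; over all 6 comparisons 1 was higher and 30 lower. Between CONV and BIF, an alternative added after seeing the data, 2 genes then differed in the hippocampus, against 12 with *Gapdh*. The medians were -0.081 in the BIF hippocampus, -0.112 in the BIF cortex, -0.195 in the CONV cerebellum and -0.105 in the BIF cerebellum. With the mean of the 4 reference genes other than *Gapdh*, 1 gene was higher and 1 lower in the BIF hippocampus, 10 were lower in the CONV cortex and 10 in the CONV cerebellum, and 1 was higher and 8 lower in the BIF cerebellum. Over all 6 comparisons 0 were then higher and 36 lower, and the medians were -0.165, -0.175, -0.25 and -0.18 in the order above. With the median of the 84 genes as the reference, 6 genes were higher and 1 lower in the CONV hippocampus, 1 was higher in the BIF hippocampus, and 8 were lower in all 6 comparisons; the medians were 0.12 in the CONV and 0.055 in the BIF hippocampus. The cause of these shifts was not tested.

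At 2-fold, 1 gene was higher and 1 lower in the CONV hippocampus, 1 higher in the BIF hippocampus, 3 lower in the CONV cortex, 0 higher and 1 lower in the BIF cortex, 2 higher and 0 lower in the CONV cerebellum, and 1 higher and 0 lower in the BIF cerebellum. With CTs of 30 or below, 1 gene was higher in the CONV hippocampus, 1 lower in the BIF cortex and 4 higher in the CONV cerebellum. Without CTs at the limit, 1 was higher in the CONV hippocampus. Without the hippocampus pools, 8 genes were lower in all remaining comparisons. Where every difference had to exceed the SD from control wells, 6 genes were higher and 0 lower in all 6. The correlation with the change with age, whose alternatives were chosen after seeing the data, lay between -0.64 and -0.485 with the GF pools only, -0.61 and -0.51 with the CONV and BIF pools only, -0.65 and -0.55 without *Tnf*, and -0.70 and -0.57 with CTs of 30 or below. Pairing by replicate number was not possible because the labels carry none. A fit with region as the block could have been made and was not run. The scatter of late CTs was not measured.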

Other observations

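The relation of the colonized minus GF difference to the change with age was also computed at the other ages, chosen after seeing the data and with the age change taken between the remaining 2 ages. For the P4 difference and the change from P10 to P20, r across the 84 genes was 0.02, 0.16 and -0.18 for CONV and 0.096, 0.42 and -0.22 for BIF in the hippocampus, cortex and cerebellum. For the P20 difference and the change from P4 to P10, r was 0.15, -0.20 and 0.16 for CONV and 0.26, 0.046 and 0.28 for BIF. The spans of age differ from that used at P10, and the difference between ages was not tested. At P4, the GF, CONV and BIF pools of the hippocampus were on different plates, as were those of the cortex, unlike at P10.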
